A study of Homo sapiens with 20 samples.

Results

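The subject here is a group of 36 DNA repair genes, taken by symbol from the 58870 genes of the RNA-seq table, in A375 and 1205Lu human melanoma cells in which FRA1 was silenced. FRA1, encoded by FOSL1, is a subunit of the AP-1 transcription factor. The 36 genes were sorted by pathway into 14 genes of homologous recombination, 7 genes of the Fanconi anemia pathway, 4 checkpoint kinases, 2 mismatch repair genes, 3 genes of base excision and single-strand break repair, 2 nucleotide excision repair genes and 4 end-joining genes, and the 21 genes of homologous recombination and the Fanconi pathway were compared with the 11 genes of mismatch repair, excision repair and end joining. RNA-seq was performed on both cell lines after transfection with siRNAs against FRA1 (si-FRA1, given as si-FOSL1 in the sample names) or with non-targeting siRNAs (si-NT), with 3 samples in each of the 4 groups. Cut&Run, which maps where a protein sits on DNA, was performed with a FRA1 antibody on 3 samples of each line and with an IgG control antibody on 1 sample of each line. Both are established lines, for which no further allele or drug was named in these samples. Neither the siRNA dose, nor the time after transfection, nor whether replicates were separate cultures was given in the sources used here, so the p-values measure the spread between these samples, which may be technical.

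Double-strand breaks are repaired either by end joining, which ligates the ends directly, or by homologous recombination, which resects the ends and copies the sister chromatid. The Fanconi pathway unhooks cross-linked DNA strands and hands the break to recombination. Both need a sister chromatid or a replication fork, and many of their genes are known to be transcribed mainly in S and G2 phase. Mismatch repair corrects errors left by replication, and excision repair removes damaged bases or lesions from a single strand.

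The RNA-seq libraries held 20573412 to 32518903 counts over all genes, and replicates varied by 4.51% in A375 and by 4.2% in 1205Lu (edgeR biological coefficient of variation). FOSL1 was at 413, 424 and 408 CPM (read counts scaled for library size) in A375 si-NT cells and at 25.7, 25.7 and 26 CPM in A375 si-FRA1 cells. The control samples of 1205Lu held 492, 484 and 478 CPM, and the silenced samples 69.4, 70.9 and 65.1 CPM. The silenced samples thus kept 6.19% and 14% of the FOSL1 RNA. Of the melanocyte lineage genes, SOX10 was expressed in both lines, at a mean of 44 CPM in A375 and 914 CPM in 1205Lu si-NT cells, whereas the pigmentation genes PMEL, MLANA, TYR and DCT stood under 1 CPM in the mean of both si-NT groups. MITF was higher in A375, at 52.2 against 3.55 CPM, and S100B in 1205Lu, at 427 against 0.992 CPM. Of the 10 melanoma markers, 2 were lower and 3 higher after silencing among 7 tested in A375, and 4 were lower and 1 higher among 8 tested in 1205Lu, with AXL at -1.91 and -0.91 and S100A1 at 1.11 and -1.40 on the log2 scale. The 8 markers of epithelial, immune, endothelial and muscle cells had si-NT means under 1 CPM in both lines, and of the 4 that could be tested in A375 only DES, a muscle gene, was higher after silencing, at 2.4 against 0.48 CPM.

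All 36 repair genes passed the filter on low counts in both lines. After FRA1 silencing, 23 of them were lower and 6 higher in A375 cells, and 21 were lower and 4 higher in 1205Lu cells (edgeR quasi-likelihood test, Benjamini-Hochberg adjusted p under 0.05 over all genes tested). The lower genes made up 63.9% of the 36 in A375 and 58.3% in 1205Lu. Among all protein-coding genes tested, 27.8% were lower and 29.9% higher in A375, and 23% were lower and 24% higher in 1205Lu. The 36 were chosen with earlier results of these data known, so these shares do not test repair genes at large. Of 116 further repair genes, 45.7% were lower in A375 and 32.8% in 1205Lu. Of the 21 recombination and Fanconi genes in A375, 16 were lower, 3 were higher and 2 did not pass, with a median log2 fold change of -0.58, while the median over all protein-coding genes was 0.01. In 1205Lu, 14 of the 21 were lower, 2 were higher and 5 did not pass, with a median of -0.50 against -0.001 over all protein-coding genes. Of the 11 genes of mismatch repair, excision repair and end joining, 7 were lower and 2 higher in A375 with a median of -0.26, and 5 were lower and 1 higher in 1205Lu with a median of -0.07. POLQ, whose polymerase joins ends that have been resected, may be counted with either group. Without it the second group had medians of -0.24 and -0.06. In bulk RNA, a lower level can come from fewer cells that express a gene or from less RNA in each cell, and these cannot be told apart.

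**Figure D1:**
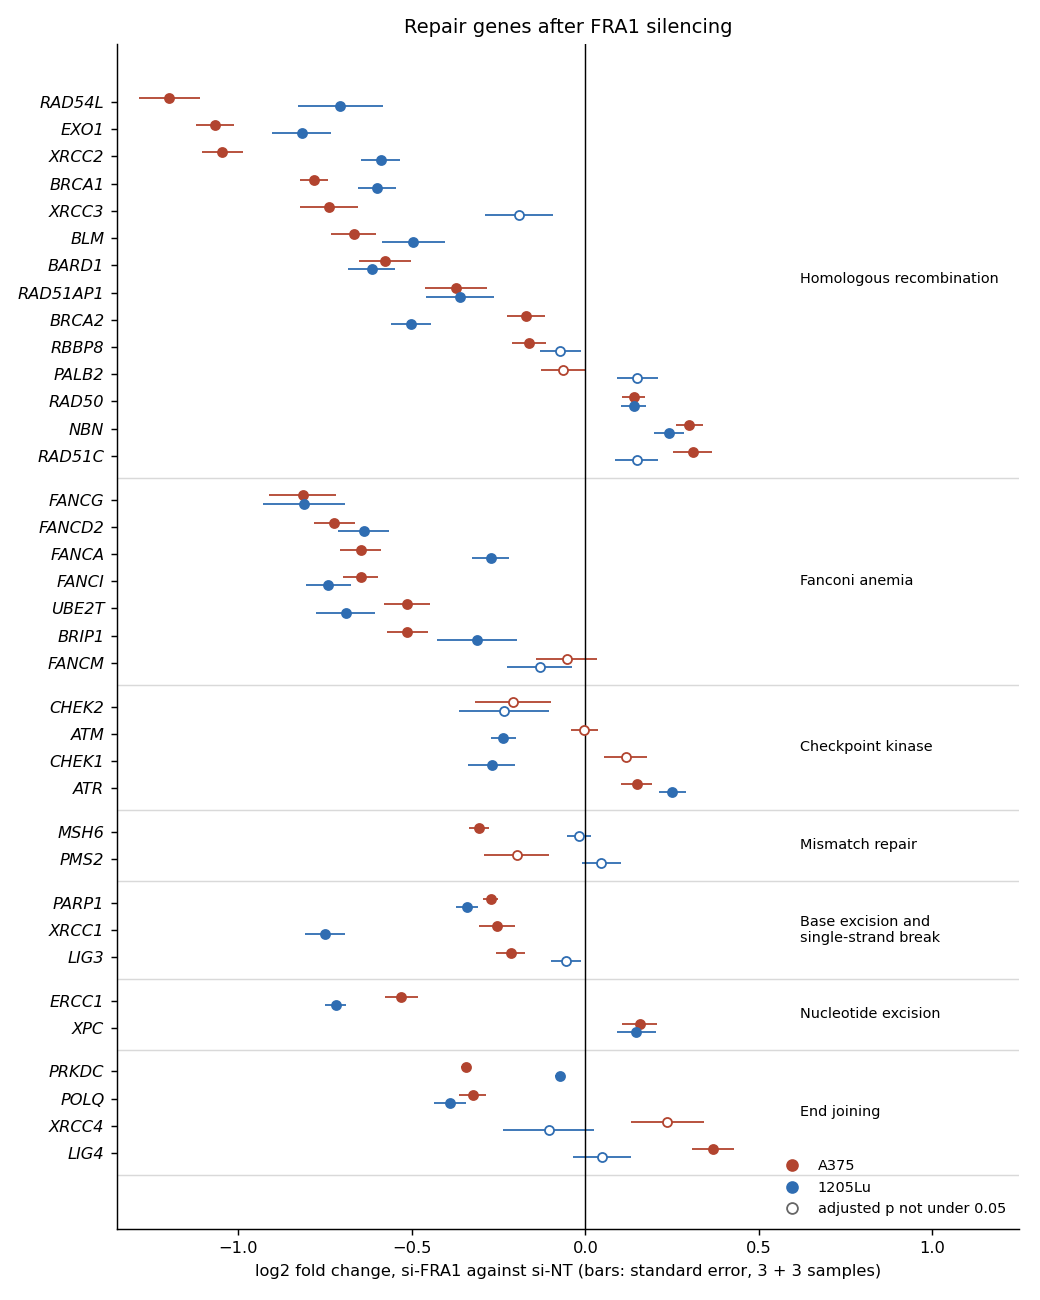
Log2 fold change of each of the 36 repair genes after FRA1 silencing in A375 (red) and 1205Lu (blue), with the standard error of the fit over 3 si-FRA1 and 3 si-NT samples. Filled points passed an adjusted p of 0.05, and most filled points of homologous recombination and the Fanconi pathway lie left of 0 in both lines, from RAD54L at -1.20 in A375 to RAD50, NBN and RAD51C right of 0.

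Per library, the median log2 difference of the 21 recombination and Fanconi genes from the si-NT mean of the line was -0.49, -0.54 and -0.54 in the A375 si-FRA1 samples and -0.56, -0.37 and -0.41 in the 1205Lu si-FRA1 samples. For the 11 genes of the other pathways it was -0.24, -0.26 and -0.24 in A375 and -0.08, -0.05 and -0.06 in 1205Lu. In each of the 6 silenced samples the first group therefore stood below the second. The si-NT samples of both lines lay between -0.01 and 0.03 for both groups.

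RAD54L, EXO1 and XRCC2 had the lowest log2 fold changes of the 36 in A375. RAD54L (ENSG00000085999.12, chromosome 1, GRCh38 positions 46246461 to 46278480) encodes a translocase that helps the resected strand invade its template. It was at 22, 20.6 and 23.2 CPM in A375 si-NT cells and at 10.4, 8.77 and 9.43 CPM after silencing, a log2 fold change of -1.20 ± 0.09 (SE, edgeR adjusted p = 4.56e-11). The 1205Lu samples were at 12.4, 12.1 and 10.5 CPM before and 7.26, 6.47 and 8.04 CPM after silencing, or -0.71 ± 0.12 (SE, edgeR adjusted p = 8.76e-05). The silenced samples lay below the si-NT samples in both lines without overlap. Exons of LRRC41 on the opposite strand cover 19.9% of the exonic bases of RAD54L, and although the libraries were strand-specific, the strand setting of the counting was not given in the sources used here.

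EXO1 (ENSG00000174371.17, chromosome 1, positions 241847967 to 241895148) encodes the exonuclease of long-range end resection, which also serves mismatch repair. Its values in A375 were 44, 43.2 and 45.7 CPM in control and 21.1, 21.5 and 21.1 CPM in silenced samples, or -1.07 ± 0.06 on the log2 scale (SE, edgeR adjusted p = 6.64e-14). In 1205Lu they were 18.1, 19.8 and 20 CPM against 10.7, 11.3 and 11.3 CPM, or -0.82 ± 0.08 (SE, edgeR adjusted p = 1.32e-07). EXO1 thus kept 47.7% of its si-NT level in A375 and 56.8% in 1205Lu, without overlap of the groups.

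XRCC2 (ENSG00000196584.3, chromosome 7, positions 152644776 to 152676193) acts in strand exchange. It went from 46.9, 44.7 and 47.2 CPM to 24.1, 21.4 and 21.7 CPM in A375, or -1.05 ± 0.06 (SE, edgeR adjusted p = 2.81e-13). In 1205Lu it went from 47.1, 42.8 and 44.4 CPM to 28.7, 30.3 and 31.4 CPM, or -0.59 ± 0.06 (SE, edgeR adjusted p = 3.3e-08). The si-NT samples of both lines overlapped, and the A375 samples lay lower after silencing. RAD54L, EXO1 and XRCC2 were the only genes of the 36 past a log2 fold change of -1, all of them in A375. Among all protein-coding genes, 2.51% passed this limit in A375 and 1.86% in 1205Lu, and 2.78% and 1.11% rose by more than 1, where none of the 36 did.

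Of the Fanconi genes, 6 of 7 fell in each line, and they were the same 6. Of 12 further Fanconi genes, 4 were lower and 1 higher in A375 with a median log2 fold change of -0.15, and 1 was lower in 1205Lu with a median of -0.07, so that 8.33% of them were lower there against 23% of all protein-coding genes. FANCG (ENSG00000221829.9, chromosome 9, positions 35073835 to 35080004) is a subunit of the core complex that ubiquitinates FANCD2 and FANCI. It was at 15.9, 16.2 and 16.1 CPM in A375 si-NT cells and at 8.94, 8.31 and 10.2 CPM after silencing, or -0.82 ± 0.10 (SE, edgeR adjusted p = 1.38e-07). The corresponding 1205Lu samples were at 11.8, 14.5 and 13.2 CPM and at 6.92, 8.44 and 7.32 CPM, or -0.81 ± 0.12 (SE, edgeR adjusted p = 1.1e-05). FANCI (ENSG00000140525.17, chromosome 15, positions 89243945 to 89317261), one of the pair that is ubiquitinated, was at 79.7, 74.3 and 72.3 CPM and then at 44.9, 51.8 and 48.6 CPM in A375, or -0.65 ± 0.05 (SE, edgeR adjusted p = 1.36e-10). FANCI levels in 1205Lu were 41.7, 42 and 44.5 CPM and then 22.7, 28.2 and 26.6 CPM, or -0.74 ± 0.07 (SE, edgeR adjusted p = 1.28e-08). The si-FRA1 samples of both genes lay below all si-NT samples of their line. The partner FANCD2 had log2 fold changes of -0.72 in A375 and -0.64 in 1205Lu, the ubiquitin-conjugating enzyme UBE2T of -0.51 and -0.69, the core subunit FANCA of -0.65 and -0.27, and the BRCA1-bound helicase BRIP1 of -0.51 and -0.31. The BRIP1 call in 1205Lu ended without any of 5 samples (-0.334 to -0.243), with library totals (-0.28), without a filter (-0.294), under DESeq2 (-0.311) and under the replicate block (-0.308). FANCM, which recognizes the stalled fork, did not pass in either line, at -0.05 and -0.13. Exons of ZNF276 on the opposite strand cover 19.6% of the exonic bases of FANCA.

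BRCA1 and its obligate partner BARD1 fell in both lines, with log2 fold changes of -0.78 and -0.60 for BRCA1 and of -0.58 and -0.62 for BARD1 in A375 and 1205Lu, respectively. The helicase BLM changed by -0.67 and -0.50, and RAD51AP1, which stimulates strand invasion, by -0.37 and -0.36. BRCA2, which acts after resection, changed by -0.17 in A375 and by -0.50 in 1205Lu, and its A375 call ended without si-NT replicate 2 (-0.125) or si-FRA1 replicate 3 (-0.126). XRCC3, which also acts in strand exchange, fell by 0.74 on the log2 scale in A375 and was at -0.19 in 1205Lu (edgeR adjusted p = 0.132), with exons of KLC1 on the opposite strand covering 76.7% of its exonic bases. RBBP8 (CtIP), which starts resection, was at -0.16 in A375, which passed except without si-NT replicate 2 (-0.127) or si-FRA1 replicate 1 (-0.128), and at -0.07 in 1205Lu, which did not pass.

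RAD50 rose by 0.14 in both lines and NBN by 0.30 and 0.24, both being subunits of the MRN complex that holds the ends and recruits ATM. An annotated same-strand protein-coding gene covers 76.9% of the exonic bases of RAD50. RAD51C rose by 0.31 in A375 and was at 0.15 in 1205Lu (edgeR adjusted p = 0.0674). PALB2, the bridge between BRCA1 and BRCA2, did not pass in either line, at -0.07 and 0.15. Of the 4 kinases, 1 rose in A375, and 1 rose and 2 fell in 1205Lu. ATR rose by 0.15 in A375, a call that ended without si-NT replicate 2 (0.09), and by 0.25 in 1205Lu. ATM was at -0.003 in A375 and fell by 0.24 in 1205Lu, and CHEK1 was at 0.12 in A375, which did not pass, and fell by 0.27 in 1205Lu. CHEK2 did not pass in either line, at -0.21 and -0.23.

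**Figure D2:**
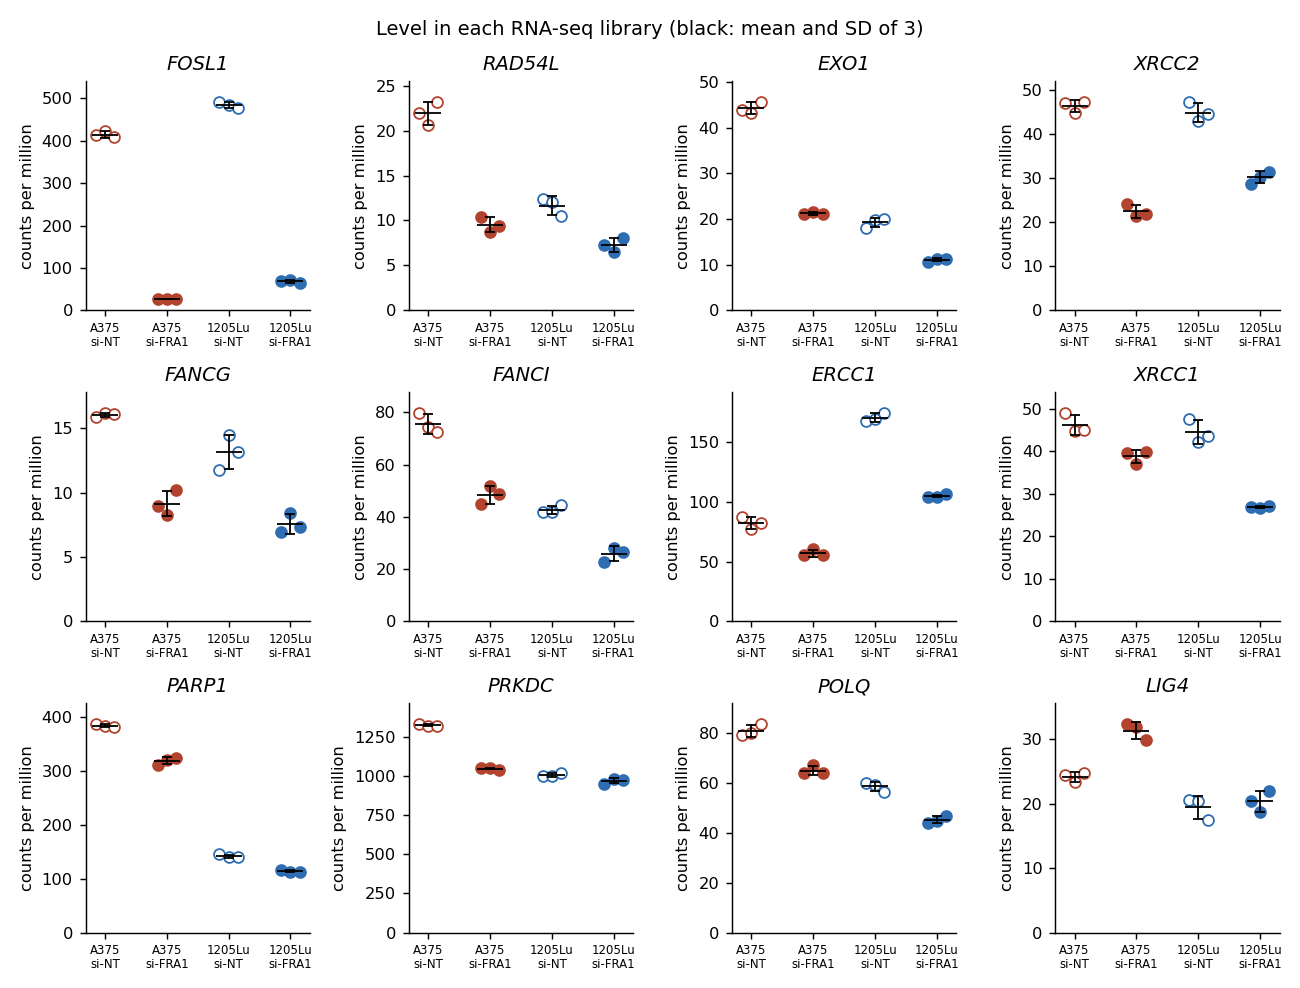
CPM in each of the 12 RNA-seq libraries for FOSL1 and the 11 repair genes whose single values are given, with open points for si-NT, filled points for si-FRA1, red for A375 and blue for 1205Lu, and the mean and SD of 3 samples in black. RAD54L, EXO1, XRCC2, FANCG and FANCI drop in both lines, XRCC1 drops more in 1205Lu, and LIG4 rises in A375.

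ERCC1 (ENSG00000012061.15, chromosome 19, positions 45407334 to 45478828), a subunit of the nuclease that makes the 5′ incision in nucleotide excision repair, fell in both lines. It was at 86.8, 76.8 and 82.6 CPM in A375 si-NT cells and at 55.4, 60.4 and 55.3 CPM after silencing, or -0.53 ± 0.05 (SE, edgeR adjusted p = 1.2e-09). ERCC1 stood at 167, 169 and 174 CPM in 1205Lu controls and at 104, 104 and 106 CPM after silencing, or -0.72 ± 0.03 (SE, edgeR adjusted p = 1.04e-13). The groups did not overlap in either line. ERCC1 also works with ERCC4 in unhooking cross-links. POLR1G on the opposite strand covers 28.6% of its exonic bases. XPC, which recognizes lesions in the same pathway and is a known p53 target, rose by 0.16 and 0.15, and the call ended in A375 without si-NT replicate 3 (0.127) or si-FRA1 replicate 1 (0.129) and in 1205Lu without any of 4 samples (0.116 to 0.172), with at least 10 counts required in every sample (0.135), under DESeq2 (0.149) and under the replicate block (0.147).

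XRCC1 (ENSG00000073050.11, chromosome 19, positions 43543311 to 43580473), the scaffold of single-strand break repair, was at 49, 44.7 and 45.1 CPM in A375 si-NT cells and at 39.7, 37.1 and 39.8 CPM with si-FRA1, or -0.26 ± 0.05 (SE, edgeR adjusted p = 2.5e-04). XRCC1 levels in 1205Lu were 47.6, 42.3 and 43.7 CPM and 27, 26.6 and 27.1 CPM, or -0.75 ± 0.06 (SE, edgeR adjusted p = 1.66e-09). The decrease was larger in 1205Lu (interaction 0.48, edgeR adjusted p = 2.73e-05). PARP1 (ENSG00000143799.13, chromosome 1, positions 226360210 to 226408154), the strand break sensor, was at 387, 384 and 382 CPM in A375 and then at 312, 320 and 325 CPM, or -0.27 ± 0.02 (SE, edgeR adjusted p = 1.5e-10). The 1205Lu samples were at 145, 141 and 140 CPM and then at 116, 113 and 112 CPM, or -0.34 ± 0.03 (SE, edgeR adjusted p = 2.41e-08). The groups did not overlap, and 82.8% and 79% of the level were left. LIG3, the ligase bound to XRCC1, fell by 0.22 in A375 and was at -0.06 in 1205Lu, where it did not pass. RFFL on the opposite strand covers 29.1% of its exonic bases.

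PRKDC, the catalytic subunit of DNA-PK on chromosome 8, was the most highly expressed of the 36. It was at 1330, 1320 and 1320 CPM in A375 si-NT cells and at 1050, 1050 and 1040 CPM with si-FRA1, or -0.34 ± 0.01 (SE, edgeR adjusted p = 5.63e-16). Its 1205Lu samples were at 997, 1000 and 1020 CPM and at 951, 982 and 972 CPM, or -0.07 ± 0.01 (SE, edgeR adjusted p = 5.38e-04). The change in 1205Lu passed but left 95.2% of the level, and with library totals as the scaling it did not pass (-0.04). POLQ (ENSG00000051341.14, chromosome 3, positions 121431431 to 121545988), the theta polymerase named above, was at 79.2, 80.3 and 83.7 CPM and then at 63.9, 67.1 and 64 CPM in A375, or -0.33 ± 0.04 (SE, edgeR adjusted p = 2.42e-07). Its 1205Lu levels were 60.2, 59.2 and 56.6 CPM and then 44.2, 45 and 46.8 CPM, or -0.39 ± 0.05 (SE, edgeR adjusted p = 7.35e-07). The ligase of classical end joining, LIG4 (ENSG00000174405.13, chromosome 13, positions 108207439 to 108218368), rose in A375 from 24.4, 23.3 and 24.8 CPM to 32.3, 31.8 and 29.8 CPM, or by 0.37 ± 0.06 (SE, edgeR adjusted p = 1.76e-05). Its 1205Lu samples lay at 20.5, 20.4 and 17.4 CPM and at 20.4, 18.7 and 21.9 CPM, with overlapping samples and a log2 fold change of 0.05 ± 0.08 (SE, edgeR adjusted p = 0.692). XRCC4, the scaffold of that ligase, did not pass in either line, at 0.24 and -0.11.

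Mismatch repair had 2 genes. MSH6, which recognizes mismatches, fell by 0.31 in A375 and was at -0.02 in 1205Lu (edgeR adjusted p = 0.696), and FBXO11 on the opposite strand covers 22.7% of its exonic bases. PMS2, a mismatch repair endonuclease, did not pass in either line, at -0.20 and 0.05. PMS2 shares long stretches of sequence with the pseudogene PMS2CL, and in 1205Lu si-NT sample 1 the table held 1261 estimated counts for PMS2 and 1221 for PMS2CL, so its values are uncertain.

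Across the lines, 19 of the 36 genes were lower in both, against 12.3% of protein-coding genes. These 19 comprised 14 of the 21 recombination and Fanconi genes and 5 of the 11 genes of the other pathways, namely PARP1, XRCC1, ERCC1, PRKDC and POLQ. The genes higher in both were RAD50, NBN, ATR and XPC. None of the 36 was called with opposite signs in the 2 lines, and 9.86% of the protein-coding genes were. The difference between the lines, tested as an interaction term over all 12 samples, passed for 15 of the 36 genes and for 38.7% of all protein-coding genes. FANCG, FANCI, FANCD2, UBE2T and BARD1 were among the 21 that did not pass.

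Of 45 further genes of homologous recombination and the Fanconi pathway, 22 were lower and 5 higher in A375 with a median log2 fold change of -0.19, and 16 were lower and 4 higher in 1205Lu with a median of -0.09. Of 57 further genes of mismatch repair, excision repair and end joining, 23 were lower and 12 higher in A375 with a median of -0.12, and 17 were lower and 9 higher in 1205Lu with a median of -0.06. Within this wider set the shares lower were thus 48.9% against 40.4% in A375 and 35.6% against 29.8% in 1205Lu, where among the 36 they were 76.2% against 63.6% and 66.7% against 45.5%. These differences between pathways were not tested, and the 36 were chosen with earlier results of these data known. RMI2, a partner of BLM, changed by -1.21 and -0.80. Of 14 further checkpoint genes, 8 were lower and 3 higher in A375, with a median of -0.36. In 1205Lu 5 were lower and 3 higher, with a median of -0.08. Among these, MDC1, which reads the histone mark at breaks, changed by -1.22 in A375 and was at 0.003 in 1205Lu. ERCC6, which starts transcription-coupled repair, rose by 0.63 and 1.02.

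Cell cycle genes were listed beside the repair genes. Of 24 genes of DNA replication and S phase, 23 were lower in each line, with medians of -0.61 in A375 and -0.64 in 1205Lu. Of 18 genes of G2 and M phase, 14 were lower in A375 and 18 in 1205Lu, with medians of -0.20 and -0.42. The replication clamp gene PCNA changed by -0.20 and -0.45, E2F1 by -0.53 and -0.65, CCNE2 (cyclin E2) by -0.45 and -0.48, and the proliferation marker MKI67 by -0.44 and -0.57. Of 16 known p53 targets, 13 were higher in each line, with medians of 0.50 and 0.54, among them CDKN1A, which encodes the cell cycle inhibitor p21, at 1.09 and 0.76, and MDM2 at 0.58 and 0.33. The part of the cell cycle genes in the change of the repair genes was not tested.

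**Figure D3:**
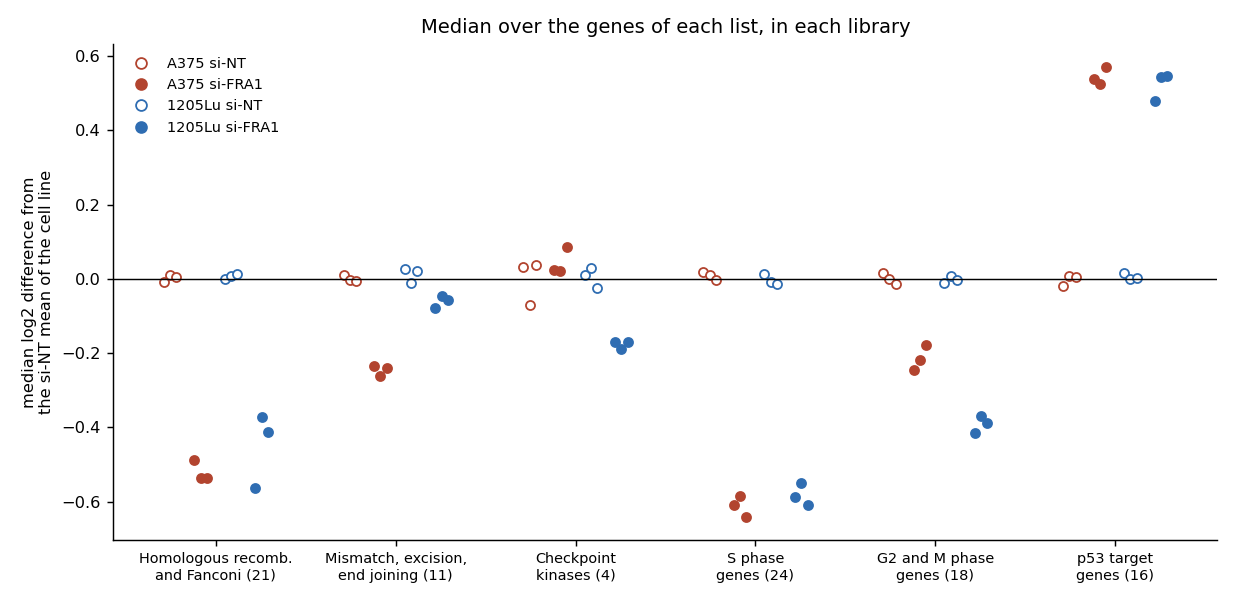
Median log2 difference from the si-NT mean of the cell line, in each of the 12 libraries, over the genes of 6 lists, with the number of genes in parentheses. The si-FRA1 samples of the recombination and Fanconi genes lie between -0.56 and -0.37. Those of the mismatch, excision and end-joining genes lie between -0.26 and -0.05. For the S phase genes they lie between -0.64 and -0.55, and for the G2 and M phase genes between -0.42 and -0.18.

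In si-NT cells, 22 of the 36 genes were higher in A375 than in 1205Lu si-NT cells and 7 were higher in 1205Lu, where 42.4% and 40.4% of all protein-coding genes were. With library totals as the only scaling, which moved the median of all protein-coding genes from 0.02 to 0.16, the split was 27 and 4. BRIP1 differed most, at 1.75 on the log2 scale (A375 minus 1205Lu, edgeR adjusted p = 7.57e-14), followed by PARP1 at 1.36 and EXO1 at 1.13. PMS2 at -1.21, ERCC1 at -1.13 and ATM at -0.87 were the genes furthest toward 1205Lu. Per kilobase of exon (RPKM, CPM divided by the length of all annotated exons), PRKDC led in both lines, at 45.5 ± 0.2 in A375 and 34.6 ± 0.43 in 1205Lu (SD, n = 3). PARP1 followed in A375 at 20.9 ± 0.14 and ERCC1 in 1205Lu at 30.5 ± 0.65 (SD, n = 3). In A375, XRCC1 at 16.9 ± 0.87, ERCC1 at 14.7 ± 0.9 and UBE2T at 13.9 ± 0.21 came next, and the last 2 lay within 1 SD of each other (SD, n = 3). FANCM at 1.12 ± 0.13 in A375 and BRIP1 at 0.528 ± 0.039 in 1205Lu were lowest (SD, n = 3). The lengths join the exons of all transcripts in a later GENCODE release than that of the counts, so this order depends on the annotation. By CPM, XRCC4 and CHEK2 lay below BRIP1 in 1205Lu si-NT cells.

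The Cut&Run table holds 54563 consensus peaks, and it was used to ask how FRA1 reads lie at the starts of these genes. The FRA1 libraries of A375 held 3354095 to 5316527 reads in peaks against 383994 in IgG, and those of 1205Lu held 583750 to 897407 against 314569. FRA1 libraries 2 and 3 of 1205Lu differed by no more than sampling noise over 8327 peaks (chi-square per degree of freedom of 1.01), while every other pair of a line differed by more, so they may be 1 sample. Their reads are given apart, and the 1205Lu count below was also made with their mean as 1 library. A peak was counted as enriched where every FRA1 library of a line had at least 10 reads and at least 4 times the IgG reads plus 1. Of the 36 genes, 27 had a consensus peak within 3 kb of an annotated transcript start, and 59.8% of the protein-coding genes did. In A375, 16 of the 36 had an enriched peak, and 35% of the genes tested did. In 1205Lu none had one, with these libraries apart or averaged, and 4.87% of the genes tested did.

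The 16 comprised 9 of the 21 recombination and Fanconi genes, 5 of the 11 genes of the other pathways and 2 kinases. Some passed narrowly, such as EXO1 with 73 FRA1 reads against 17 IgG reads and BLM with 32 against 7 in their lowest A375 library. Counting from the start of the MANE Select transcript alone, the 1 transcript per gene that the annotation takes as standard, 11 genes were left in A375 against 23.9% of all genes. These were BRCA2, EXO1, BLM, RAD51AP1, XRCC3, FANCD2, CHEK1, CHEK2, ERCC1, XRCC4 and PRKDC. The peaks of BRCA1, RBBP8, FANCG, XRCC1 and POLQ lie 6484 to 62466 bases from that start, and within 3 kb of an alternative start. The FRA1 libraries of A375 held 8.73 to 13.8 times the reads of the IgG library, and with all libraries scaled to one total in peaks 0 of the 36 passed, as did 0.545% of the genes tested. In 1205Lu the scaled share of genes was 1.58%, so the order of the lines turned round with the scaling. Scaling FRA1 and IgG to the same total in peaks also removes any enrichment that most peaks share. Over all peaks in A375, 57.4% passed unscaled and 1.61% scaled. The count of 16 thus rests on unscaled reads, and the scaled counts cannot decide whether these peaks or the order of the lines reflect enrichment. The 16 genes with such a peak in A375 had a median log2 fold change of -0.36 and the other 20 of -0.21, with 13 and 10 genes lower, and over all genes tested 31.4% with a peak and 25.9% without one were lower.

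**Figure D4:**
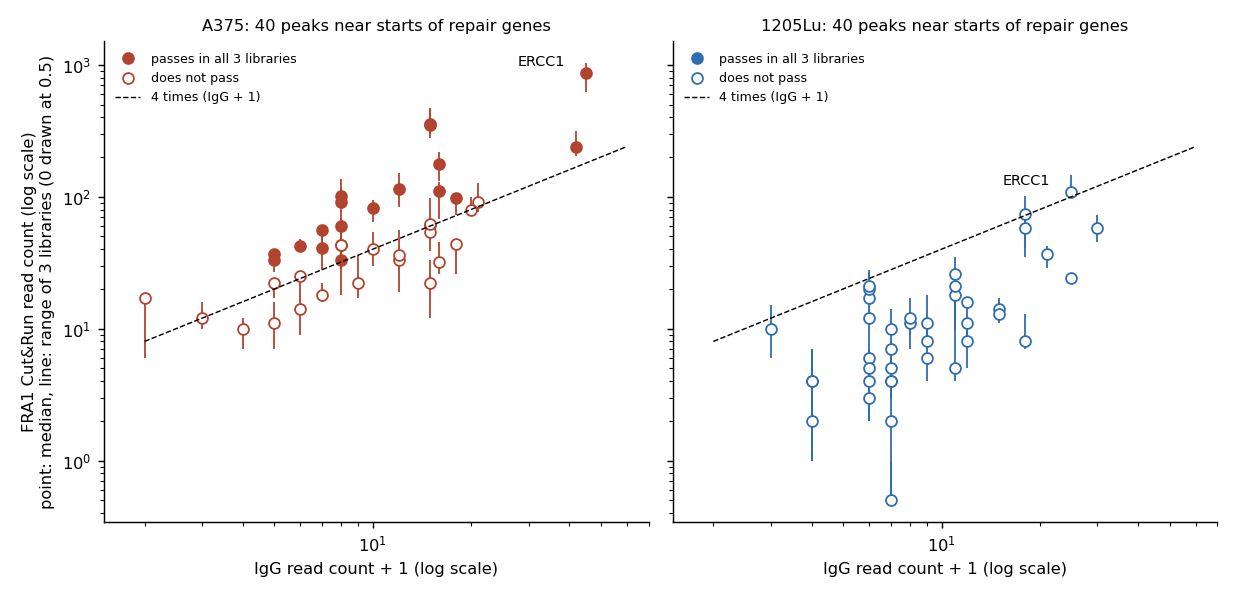
Read counts of the 40 consensus peaks within 3 kb of a start of the repair genes, FRA1 Cut&Run on the vertical axis against IgG plus 1 on the horizontal axis, both logarithmic, for A375 (left) and 1205Lu (right). In A375 filled points stand above the dashed line of 4 times IgG plus 1 in all 3 FRA1 libraries, led by ERCC1 with 625 to 1028 reads, and in 1205Lu no peak does.

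The peak with the most FRA1 reads lay over the start of ERCC1, at chr19:45423528-45425573. It held 625, 1028 and 867 FRA1 reads against 44 IgG reads in A375. In 1205Lu it held 99, 147 and 109 FRA1 reads against 24 IgG reads, where 100 were required, so it missed by 1 read in the first library. An upstream peak at chr19:45477933-45479143 lies over an alternative start of the same gene, 54016 bases from the MANE Select start. It held 277, 469 and 347 reads against 14 in A375, and 41, 101 and 74 against 17 in 1205Lu. At the start of EXO1 the A375 counts were 73, 101 and 98 against 17, and the 1205Lu counts were 14, 5 and 12 against 5. RAD54L, XRCC2, FANCA, FANCI and PARP1, lower in both lines, had no consensus peak within 3 kb, and neither did MSH6, LIG4, RAD51C or PALB2.

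The AP-1 word TGACTCA, or its reverse complement TGAGTCA, was present in 12 of the 40 peaks near the 36 genes, or 30%, against 42.9% of the peaks within 3 kb of any gene tested. The median width was 791 bases for the former and 753 bases for the latter. The 40 include peaks that did not pass the enrichment rule in A375. The peaks with the word passed it, except the PMS2 peak and the CHEK2 peak at chr22:28710118-28711131. Enriched A375 peaks without the word were those of BRCA2, EXO1, BLM, XRCC3, FANCD2, CHEK1 and XRCC4 and the ERCC1 peak at chr19:45477933-45479143. The share among enriched peaks of all genes was not determined. The word nearest the MANE Select start in the enriched A375 peaks of 3 genes is shown on the plus strand of GRCh38, with the word in capitals, since FRA1 reads and an AP-1 word occur together there.
CHEK2, chr22:28741751-28741777, 56 bases from the start: gttccccataTGACTCAccgcgtgagc
RAD51AP1, chr12:4539332-4539358, 455 bases from the start: gtaagttatcTGAGTCAtacagcccag
ERCC1, chr19:45424432-45424458, 528 bases from the start: ggggagcgccTGACTCAgccccggagt
Of these 3 genes CHEK2 did not pass in either line, and RAD51AP1 and ERCC1 were lower in both. PRKDC, BRCA1, FANCG, XRCC1 and POLQ, also lower in both, had an enriched A375 peak with an AP-1 word as well. So did RBBP8, which was lower in A375 only. The PRKDC peak lies 160 bases from the MANE Select start, and the others lie 6484 to 62466 bases from it. Their sequences are not shown.

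Promoter sequences from RefSeq (GRCh38.p14, 250 bases before to 50 bases after the start) were matched for 33 of the 36 genes. None held an AP-1 word, and 3.66% of 15842 protein-coding promoters did. Words bound by E2F factors (TTTCCCGC, TTTGGCGC, TTTCGCGC and TTTGCCGC, on either strand) were in 7 of the 33, and in 4.44% of all promoters. These 7 were 4 of 19 matched recombination and Fanconi genes, namely EXO1, XRCC2, FANCA and FANCD2, and 3 of 10 matched genes of the other pathways, namely MSH6, PMS2 and XPC. Each is shown 5′ to 3′ on the strand of its gene with the E2F word in capitals, because genes with the word fell, rose and did not pass.
EXO1, chr1:241848198-241848225, lower in both lines: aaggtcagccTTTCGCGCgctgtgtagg
XRCC2, chr7:152676103-152676130, lower in both lines: ggcgttggtgGCGGGAAAgttgagtctc
FANCA, chr16:89816802-89816829, lower in both lines: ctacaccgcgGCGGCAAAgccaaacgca
FANCD2, chr3:10026425-10026452, lower in both lines: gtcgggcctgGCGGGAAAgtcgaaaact
MSH6, chr2:47783138-47783165, lower in A375: tccccccagaTTTCCCGCcagcaggagc
PMS2, chr7:6009132-6009159, not past the test: gggaagtattTTTGCCGCcccgcccgga
XPC, chr3:14178825-14178851, higher in both lines: cctgcgcccTTTCCCGCctctcgcgag
The CHR words TTTGAA and TTCGAA, read on both strands and known from cell cycle genes, were in 5 of the 33 against 13.5% of all promoters, and CCAAT was in 16 against 36.4%. UBE2T, BRIP1, ATM and XRCC1 held both. A match gives the letters in these windows only.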

How the data were processed

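RNA-seq counts were deposited by the authors as one table of estimated counts per gene, made per the labels and methods with cutadapt 1.8.1, STAR 2.7.7a and RSEM 1.3.0 on GRCh38, and given as whole numbers. Cut&Run read counts in consensus peaks were deposited after Bowtie2 2.4.1 and MACS2 2.1.1.20160309. From the counts as deposited, genes were filtered with filterByExpr, scaled by TMM and tested with the quasi-likelihood test of edgeR 4.0.16 within each line (DESeq2 1.42.0 as an alternative). The fits were tested on simulated data. Printed CPM use TMM library sizes over 12 samples. Log2 fold changes are si-FRA1 minus si-NT, and adjusted p-values cover all genes tested (16899 in A375, 17136 in 1205Lu), with a limit of 0.05. Transcript starts, MANE Select starts and exon lengths came from GENCODE, and all 54563 peaks lay within the chromosomes of the reference. Single values were printed for the 4 recombination or Fanconi genes and the 4 other genes with the largest called change per line, and for genes past 1 on the log2 scale. Members and lists were chosen with earlier results of these data known. With 1 IgG library per line, peak counts have no control replicate. Same-numbered samples were not treated as pairs. Alternatives were DESeq2, other scalings and filters, a fit of all 12 samples, the replicate block, leaving out each sample, other peak limits and, added after seeing the data, MANE Select starts and averaging of the similar libraries. Some further genes of these pathways are not reported here.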

Additional observations from a re-analysis of the deposited data

Results flagged for a closer look

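The silencing effect differed between the lines for 15 of the 36 genes by the interaction test (edgeR adjusted p of 0.0364 or less), given here as the effect in A375 minus that in 1205Lu on the log2 scale. Among all protein-coding genes 38.7% passed this test, so the share of the 36 is near that of all genes. The effect was more negative in A375 for XRCC3 (-0.56), RAD54L (-0.51), XRCC2 (-0.47), FANCA (-0.39), MSH6 (-0.30), PRKDC (-0.28), EXO1 (-0.26), BRCA1 (-0.19) and LIG3 (-0.17). It was more negative in 1205Lu, or positive in A375 alone, for XRCC1 (0.48), CHEK1 (0.38), BRCA2 (0.32), LIG4 (0.31), ATM (0.22) and ERCC1 (0.18). FOSL1 RNA was left at 6.19% of the si-NT level in A375 and at 14% in 1205Lu, and the part of this difference in the values above was not tested. The difference no longer passed when some single samples were left out for BRCA1 (5 samples), EXO1 (5), LIG3 (1), LIG4 (6) and ERCC1 (4), under DESeq2 and with upper-quartile factors for BRCA1, EXO1 and LIG3, with library totals for ERCC1 and LIG4, and without a filter and under the replicate block (-0.26) for EXO1.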

How the results depend on the processing

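The counts of genes lower or higher after silencing stayed within 1.5 times of those given under DESeq2, other scalings, other filters, a single fit of all 12 samples and the replicate block, and no silencing effect of a single gene, nor its difference between the lines, changed sign. For the mismatch, excision and end-joining genes, the medians of the silenced samples ranged from -0.263 to -0.235 in A375 and from -0.078 to -0.046 in 1205Lu. The median of these genes in the fit moved with the processing by about that range or less. In A375 it was -0.238 with upper-quartile factors, -0.278 with library totals and -0.229 without a filter, and in 1205Lu it was -0.04, -0.053 and -0.055 with library totals, without a filter and with all 12 samples in one fit. Leaving out 1 sample at a time gave -0.275 to -0.256 for it in A375, and -0.591 to -0.505 for the recombination and Fanconi genes in A375, the latter without si-FRA1 replicate 2. Genes higher in 1205Lu at si-NT numbered 4 with library totals and 4 without a filter. There BARD1 turned to 0.005 and 0.002 and RAD50 to 0.115 and 0.112. BARD1 did not pass there. RAD50 had not passed in the main fit (-0.02), but passed there as higher in A375 (edgeR adjusted p = 0.00707 and 0.0147). The causes were not tested. In A375, 5 genes had an enriched peak at 8 times IgG and 0 on scaled counts. In 1205Lu, 3 had one at 2 times IgG, and 0 to 1 did when 1 FRA1 replicate was left out, the 1 without replicate 1. E2F words were in 3 promoters when only bases before the start were read. The MANE Select start and the averaged libraries were chosen after seeing the data. Same-numbered si-NT and si-FRA1 samples correlated in their deviations by 0.0311 to 0.0982 in A375 and by -0.0864 to -0.0373 in 1205Lu. Samples of different number correlated by -0.0914 to 0.035 in A375 and by -0.0405 to 0.0998 in 1205Lu. Values this weak cannot decide whether the numbers pair samples. With the replicate block, 23 genes were lower and 6 higher in A375, and 20 and 3 in 1205Lu. Over all pairs of a gene and an alternative, the silencing call was lost in 7 and gained in 5 in A375, and 17 and 8 in 1205Lu. The part of read depth in the 1205Lu peak counts was not tested.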
